A study of Homo sapiens with 6 samples.

Results

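The mitochondrial chromosome of RKO cells was followed through its 37 annotated genes, which are all genes of the deposited table whose symbol begins with MT-, out of 58735 genes in the table. They comprise 13 mRNA, 2 rRNA and 22 tRNA genes. RKO is an established human colorectal carcinoma cell line. Vector cells carried the control lentivirus, and LOC_OE cells were transduced to express the full-length lncRNA LOC101927668 stably from a plenti6 construct, with puromycin selection in both groups. Each group had 3 libraries, called biological replicates by the submitters. The labels do not tell whether these came from separate transductions or from repeated cultures of 1 selected population, so p-values measure the spread between these libraries. The comparison asked which RNAs differed when the lncRNA was overexpressed.

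The human mitochondrial chromosome is a compact circle whose mRNA genes all encode subunits of the respiratory chain complexes or of ATP synthase, while its rRNA and tRNA genes supply the mitochondrial ribosome and its decoding. Both strands are transcribed by a dedicated polymerase, POLRMT, into long precursors in which tRNAs lie between most of the mRNAs and rRNAs. Cutting at the tRNA ends releases the mature RNAs, whose levels then depend on their stability, and every other component of this machinery is encoded in the nucleus. In bulk RNA, more mitochondrial DNA per cell and more RNA per genome cannot be told apart.

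The libraries held 15008842 to 18410231 reads on genes. LOC101927668 itself had 1, 1 and 0 reads across the Vector libraries and 231, 270 and 276 reads across LOC_OE. LOC_OE replicate 1 stood apart from the other LOC_OE libraries, with correlations of log2(FPKM + 1) across genes of 0.967 and 0.962 with them, against 0.982 between those 2 and 0.982 to 0.983 between Vector libraries. The epithelial genes KRT8, KRT18, EPCAM and CDX2 passed the filter on low values, and 0 of 8 markers of blood, endothelial and stromal cells passed it. Of the other epithelial and colon markers listed, CDH1 was at 0 in every library. VIL1 did not pass either, with means of 0.013 FPKM in Vector and 0.006 in LOC_OE. FPKM, the number of fragments per gene divided by gene length and library size, rests here on a library size that was 1.05 to 1.09 times the reads on genes in Vector and 0.87 to 0.979 times in LOC_OE, so a higher FPKM in LOC_OE does not need a higher share of reads.

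Of the tRNA genes, 5 that were called higher, including the 3 with the largest fold changes, and the 3 most abundant, which were not called, are shown first, read 5′ to 3′ on the strand of the tRNA from the GENCODE v29 transcripts on GRCh38, with the anticodon in capitals. Among the called genes, MT-TL1 decodes leucine and lies at chrM:3230-3304 on the plus strand, MT-TV decodes valine at chrM:1602-1670 on the plus strand, MT-TQ decodes glutamine at chrM:4329-4400 on the minus strand, MT-TR decodes arginine at chrM:10405-10469 on the plus strand, and MT-TE decodes glutamate at chrM:14674-14742 on the minus strand. The abundant tRNA genes MT-TN for asparagine at chrM:5657-5729, MT-TC for cysteine at chrM:5761-5826 and MT-TP for proline at chrM:15956-16023 lie on the minus strand and were not called.
MT-TL1: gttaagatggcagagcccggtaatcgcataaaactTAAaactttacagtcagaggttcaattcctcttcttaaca
MT-TV: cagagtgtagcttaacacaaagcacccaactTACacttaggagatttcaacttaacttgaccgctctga
MT-TQ: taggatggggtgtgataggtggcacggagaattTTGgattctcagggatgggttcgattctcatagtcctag
MT-TR: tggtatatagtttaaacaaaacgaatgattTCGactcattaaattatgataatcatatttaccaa
MT-TE: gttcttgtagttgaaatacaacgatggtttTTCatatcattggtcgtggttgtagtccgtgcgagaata
MT-TN: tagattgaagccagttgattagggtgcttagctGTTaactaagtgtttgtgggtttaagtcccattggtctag
MT-TC: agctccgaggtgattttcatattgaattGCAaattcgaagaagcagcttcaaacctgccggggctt
MT-TP: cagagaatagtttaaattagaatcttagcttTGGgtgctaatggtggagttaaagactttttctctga

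All 37 genes passed the filter of 0.5 FPKM or more in 3 or more libraries, although for 6 tRNA genes the Vector libraries alone did not reach it. Of these, 15 were called higher in LOC_OE, 0 were called lower and 22 were not called, where a call is a fold change of at least 1.5 on the log2(FPKM + 1) scale with an adjusted p-value below 0.05 by limma over 16061 genes. Of the 15, MT-TF, MT-TK and MT-TS1 were among those 6, which leaves 12 calls among the other members. Among all genes tested, 4.63% were called higher, 5.58% were called lower and 10.2% were called in either direction. The count called lower was also 0 at an unadjusted p below 0.05 with limma, and 0 with limma voom on recovered reads. At any fold change, 16 of the 37 had an adjusted p-value below 0.05, against 20.4% of all genes tested. All 3 LOC_OE libraries were above all 3 Vector libraries for 23 of the 37 and below them for 0, and the groups overlapped for 14. Among all genes tested, 24.4% lay wholly higher and 45.3% did not overlap in either direction. The 23 include MT-TF, MT-TK, MT-TS1 and MT-TW, for which the Vector libraries alone did not reach the filter, so their separation is not read as support. The median log2 fold change of the 37, which keeps all 6 such tRNA genes, was 0.72, beside 0.02 for all genes tested. Without LOC_OE replicate 1, 17 genes were called higher. The call count rested more on Vector replicate 2, without which 7 of the 37 and 144 of all genes were called higher, and on Vector replicate 3, without which 8 of the 37 were.

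**Figure D1:**
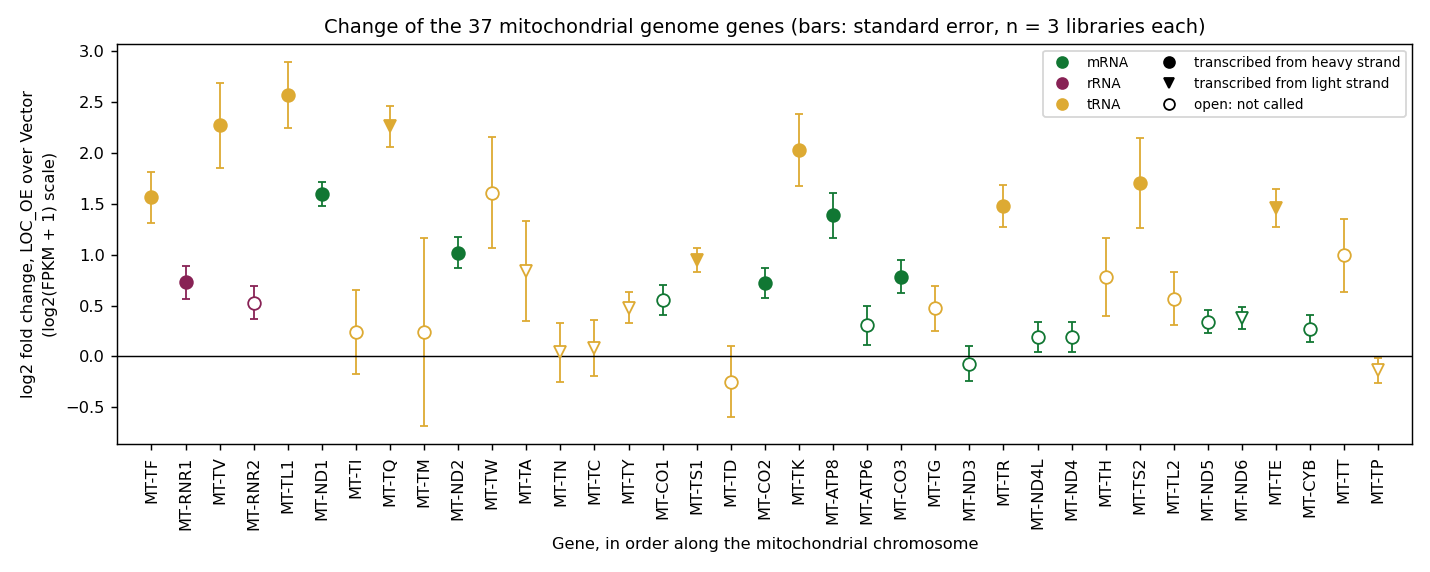
Log2 fold change of LOC_OE over Vector on the log2(FPKM + 1) scale (y axis) for the 37 genes in their order along the mitochondrial chromosome (x axis), with bars of 1 standard error, 3 libraries in each group. Filled symbols mark the 15 called genes, and the values run from −0.25 for MT-TD to 2.57 for MT-TL1.

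Of the 13 mRNA genes, 5 were called higher and 0 lower, beside 4.63% and 5.58% of all genes tested. Their median log2 fold change was 0.38. With each library rescaled to the same sum of FPKM, that median was 0.11 beside −0.18 for all genes, and 3 mRNA genes were called. The count was also 3 without Vector replicate 1 or LOC_OE replicate 2, 2 without Vector replicate 3 and 1, MT-ND1, without Vector replicate 2. Calls higher among all genes fell too, from 743 to 261 with the rescaled libraries. They were 305 without Vector replicate 1, 564 without LOC_OE replicate 2, 199 without Vector replicate 3 and 144 without Vector replicate 2. The levels of the mRNA genes differed widely. MT-CO1, the catalytic core subunit of cytochrome c oxidase, was the most abundant mRNA in every library, at 9417, 7905 and 8295 FPKM in Vector and 12327, 12272 and 12929.6 in LOC_OE. MT-ATP8, a small subunit of ATP synthase, was the least abundant in both groups, with a mean of 71.0 FPKM in Vector.

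MT-ND1, a membrane subunit of complex I, had the largest mRNA difference. Its FPKM was 803, 704 and 740.1 in Vector and 2433, 2148 and 2233 in LOC_OE. The LOC_OE libraries lay far above the Vector libraries and close to each other, and the log2 fold change was 1.60 (SE, the standard error, 0.12, limma adjusted p = 0.0029). It kept its call in all 6 fits made with 1 library omitted. MT-ND2, the next complex I gene along the chromosome, stood at 1460.4, 1298 and 1382 FPKM in Vector and at 3327, 2530 and 2609 in LOC_OE. The groups were well separated, with LOC_OE replicate 1 the highest, and the log2 fold change was 1.02 (SE 0.15, limma adjusted p = 0.00952). MT-ND2 kept its call in 4 of the 6 fits with 1 library omitted, and without the filter on low values its limma adjusted p was 0.233. Within each library the ratio of MT-ND2 to MT-ND1 was 182 to 187% in Vector and 117 to 137% in LOC_OE, without overlap.

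The other 5 complex I genes were not called. MT-ND3 was the only mRNA with a log2 fold change below 0, at −0.07 (limma adjusted p = 0.788), and its FPKM of 2447, 2259.8 and 2199 in Vector and 2743, 1903 and 1997 in LOC_OE overlapped. LOC_OE replicate 1 was the highest of all 6 libraries for MT-ND3, and the remaining LOC_OE libraries were the lowest. MT-ND4L and MT-ND4, which lie on 1 bicistronic mRNA, had similar log2 fold changes of 0.20 and 0.19 (limma adjusted p = 0.384 and 0.407) and overlapping groups. MT-ND5 had a log2 fold change of 0.34 (limma adjusted p = 0.0821) with groups that did not overlap.

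MT-ND6 is the only mRNA gene transcribed from the light strand, and its mRNA differs in base composition from all others, with 35.6% G against 6.28 to 16.2% in the other 12. Its FPKM was 1577, 1518 and 1589.7 in Vector and 1939, 2004 and 2136 in LOC_OE. All LOC_OE libraries were above all Vector libraries, but the log2 fold change of 0.38 (SE 0.11, limma adjusted p = 0.0554) did not pass. The ratio of MT-ND6 to MT-ND5, its neighbour on the opposite strand, was 104 ± 4.17% over the Vector libraries and 106 ± 2.33% over the LOC_OE libraries (SD, n = 3 each).

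Of the 3 cytochrome c oxidase genes, 2 were called higher. MT-CO2, the subunit that receives electrons from cytochrome c, rose from 6405, 5248 and 5594 FPKM in Vector to 10214, 9052 and 9141 in LOC_OE, and the groups did not overlap. Its log2 fold change was 0.72 (SE 0.15, limma adjusted p = 0.0234). MT-CO3, another core subunit, stood at 5653, 4725 and 4714 FPKM in Vector and at 9796, 8034 and 8157 in LOC_OE, with a log2 fold change of 0.78 (SE 0.16, limma adjusted p = 0.0221). MT-CO1 had an adjusted p-value of 0.0449 from limma, but its log2 fold change of 0.55 was below the fold threshold. MT-CO2 and MT-CO3 each kept their calls in 2 of the 6 fits with 1 library omitted. Both calls were lost with each library rescaled to the same sum of FPKM, at log2 fold changes of 0.46 and 0.52. They were also lost with the same sum of nuclear FPKM, at 0.52 and 0.58, and with quantile normalization, at 0 and 0.17. MT-CYB, the only complex III subunit of the chromosome, had a log2 fold change of 0.27 (limma adjusted p = 0.185), although its LOC_OE libraries were all above its Vector libraries.

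The 2 ATP synthase genes overlap by 46 bases, which are 22.2% of MT-ATP8, and are read from 1 mRNA. The end of MT-ATP8, chrM:8501-8572 on the plus strand, and the start of MT-ATP6, chrM:8527-8596 on the plus strand, are shown with the shared bases in capitals, because reads within them cannot be given to 1 gene.
MT-ATP8: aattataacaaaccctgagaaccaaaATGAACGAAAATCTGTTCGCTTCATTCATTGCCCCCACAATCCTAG
MT-ATP6: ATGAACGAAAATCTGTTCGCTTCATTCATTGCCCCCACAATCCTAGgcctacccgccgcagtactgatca

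MT-ATP8 had 51.2, 74.9 and 86.7 FPKM in Vector and 161, 171 and 223 in LOC_OE. The groups were separated, and the log2 fold change was 1.39 (SE 0.22, limma adjusted p = 0.0117). MT-ATP8 kept its call in 5 of the 6 fits with 1 library omitted. MT-ATP6, a core proton channel subunit, had 5444, 5135 and 5362 FPKM in Vector and 8399.5, 5675 and 5932 in LOC_OE. Its increase was mostly that of LOC_OE replicate 1, and the log2 fold change of 0.31 was not called (limma adjusted p = 0.292). Although both sequences lie on 1 mRNA, the FPKM of MT-ATP8 came to only 1.34 ± 0.354% of that of MT-ATP6 in Vector and 2.90 ± 0.925% in LOC_OE (SD, n = 3 each). How a read within both genes was counted is not given in the sources used here, and its part in the MT-ATP8 value was not tested. The other overlaps of members are short, 7 bases between MT-ND4L and MT-ND4, 1 base between MT-ATP6 and MT-CO3, 3 bases between MT-TI and MT-TQ on opposite strands, and 1 base between MT-TC and MT-TY.

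**Figure D2:**
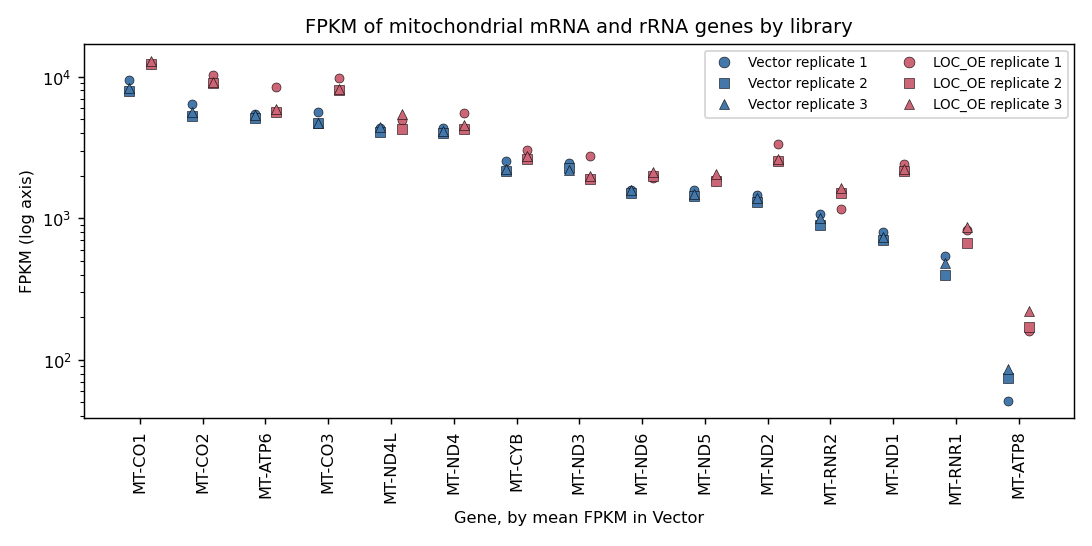
FPKM on a log axis (y axis) of the 13 mRNA and 2 rRNA genes in each of the 6 libraries, ordered by the Vector mean (x axis), with 1 symbol per library. The LOC_OE symbols of MT-ND1 lie at 2148 to 2433 FPKM, above the Vector symbols at 704 to 803, while those of MT-ND3 overlap.

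Along the heavy-strand precursor, the mRNA genes nearer its start had the larger differences. Over the 12 mRNA genes transcribed from the heavy strand, the log2 fold change and the start position in bases had a Pearson r of −0.70. With the order along the chromosome, the Spearman rho was −0.73. These genes share their libraries and their precursor, so the values are a description. The Pearson correlation with start position was −0.77, −0.67 and −0.60 for LOC_OE replicates 1, 2 and 3. Each replicate was set against the Vector mean, which these values share. With the log2 Vector mean FPKM of the same 12 genes, the log2 fold change had a Pearson r of −0.62 and a Spearman rho of −0.34. The rRNA genes MT-RNR1 and MT-RNR2 lie before all 12, with log2 fold changes of 0.73 and 0.53, below those of MT-ND1 and MT-ND2. MT-ATP8 was the clearest departure, being the fifth of the 12 with the second largest log2 fold change. The ratio of MT-ND3 to MT-CO3, which flank MT-TG, stood at 45.9 ± 2.35% in Vector and at 25.4 ± 2.29% in LOC_OE (SD, n = 3 each), and the groups did not overlap.

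An incomplete stop codon, which polyadenylation completes, closes 6 of the 13 mRNA genes in the annotation. MT-ND1 ends in TA, and MT-ND2, MT-CO3, MT-ND3, MT-ND4 and MT-CYB end in T. Of these 6, MT-ND1, MT-ND2 and MT-CO3 were called higher and the other 3 were not, and of the 7 with a complete stop codon, MT-CO2 and MT-ATP8 were called.

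MT-RNR1 encodes the 12S RNA of the small mitochondrial ribosomal subunit and MT-RNR2 the 16S RNA of the large one. MT-RNR1 had 539, 400.3 and 483 FPKM in Vector and 821, 668 and 869 in LOC_OE. It was higher in every LOC_OE library, with a log2 fold change of 0.73 (SE 0.16, limma adjusted p = 0.0261). MT-RNR2 had 1070.5, 898 and 998 FPKM in Vector and 1159, 1513 and 1641 in LOC_OE. LOC_OE replicate 1 was close to the Vector libraries, and the log2 fold change of 0.53 (standard error 0.16) gave an adjusted p of 0.0662 from limma. Without LOC_OE replicate 1 both rRNA genes were called, and MT-RNR1 kept its call in 2 of the 6 fits with 1 library omitted. With each library rescaled to the same sum of FPKM, neither was called, and MT-RNR1 stood at 0.47. The ratio of MT-RNR2 to MT-RNR1 came to 210 ± 13.2% in Vector and to 186 ± 42.8% in LOC_OE (SD, n = 3 each), with overlapping groups. Both rRNAs had lower FPKM than most of the mRNAs. Whether RNA was selected by poly(A) or depleted of rRNA is not given in the sources used here.

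Of the 22 tRNA genes, 9 were called higher and 0 lower, beside 4.63% and 5.58% of all genes tested. Their median log2 fold change was 0.90. For MT-TF, MT-TK and MT-TS1 among the 9, the Vector libraries alone did not reach the filter. This leaves 6 calls among the other tRNA genes. The heavy-strand tRNA genes had 6 of 14 called, MT-TF and MT-TK included, and a median of 1.24. The light-strand tRNA genes had 3 of 8 called, MT-TS1 included, and a median of 0.66. The class and strand medians keep all 6 tRNA genes for which the Vector libraries alone did not reach the filter. They are a description. All LOC_OE libraries were above all Vector libraries for 11 of the 22 and below them for 0, beside 24.4% of all genes wholly higher and 45.3% without overlap in either direction. The 11 include MT-TF, MT-TK, MT-TS1 and MT-TW, for which the Vector libraries alone did not reach the filter. The tRNA genes are 59 to 75 bases long, shorter than the reads of these libraries, and 17 of them had fewer than 100 reads in every library. Values at a tRNA gene can therefore come from uncut precursors or from neighbouring RNAs as well as from the tRNA, and these sources were not separated here. Without a stated strand setting, reads from the opposite strand cannot be told apart either.

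On the log2(FPKM + 1) scale, MT-TL1 had the largest log2 fold change of the chromosome, 2.57 (SE 0.32, limma adjusted p = 0.00747). That scale understates low genes. By the ratio of mean FPKM, MT-TL1 at 6.32 was below MT-TQ at 8.63, MT-TK at 7.65, MT-TF at 6.62 and MT-TV at 6.38. The FPKM of MT-TL1 was 47.6, 34.5 and 30.8 in Vector and 137, 292 and 285 in LOC_OE. LOC_OE replicate 1 had less than the other LOC_OE libraries and was still above every Vector library. MT-TL1 joins MT-RNR2 and MT-ND1 and holds the site that the termination factor MTERF1 binds. Relative to MT-RNR2 it went from 4.45, 3.84 and 3.09% in Vector to 11.8, 19.3 and 17.4% in LOC_OE, with no overlap (difference of 2.08 on the log2 scale, exact two-sided permutation p = 0.10, the smallest that 3 against 3 libraries allow). Relative to MT-ND1 it was 5.93, 4.89 and 4.16% in Vector and 5.61, 13.6 and 12.8% in LOC_OE, where LOC_OE replicate 1 lay within the Vector range (difference of 1.00 on the log2 scale, exact two-sided permutation p = 0.20). The ratio to MT-RNR2 was therefore above the Vector range in all LOC_OE libraries, and the ratio to MT-ND1 only in LOC_OE replicates 2 and 3.

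Of the 10 ratios between members that were compared, 5 had the smallest possible p of 0.10 by the exact two-sided permutation test, which is 0.2 after Benjamini-Hochberg adjustment over the 10. These were MT-TL1 to MT-RNR2, MT-ND1 to MT-RNR2, MT-ND2 to MT-ND1, MT-ATP8 to MT-ATP6 and MT-ND3 to MT-CO3. The ratio of MT-ND1 to MT-RNR2 was 75.0, 78.5 and 74.1% in Vector and 210, 142 and 136% in LOC_OE. For the 5 ratios with higher p-values, adjusted p was between 0.333 and 0.9. The ratio of MT-ND4L to MT-ND4 came to 103 ± 3.89% in Vector and to 104 ± 15.9% in LOC_OE (SD, n = 3 each). MT-TN relative to MT-TC was 156 ± 36.8% and 149 ± 10.0% in the same groups.

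**Figure D3:**
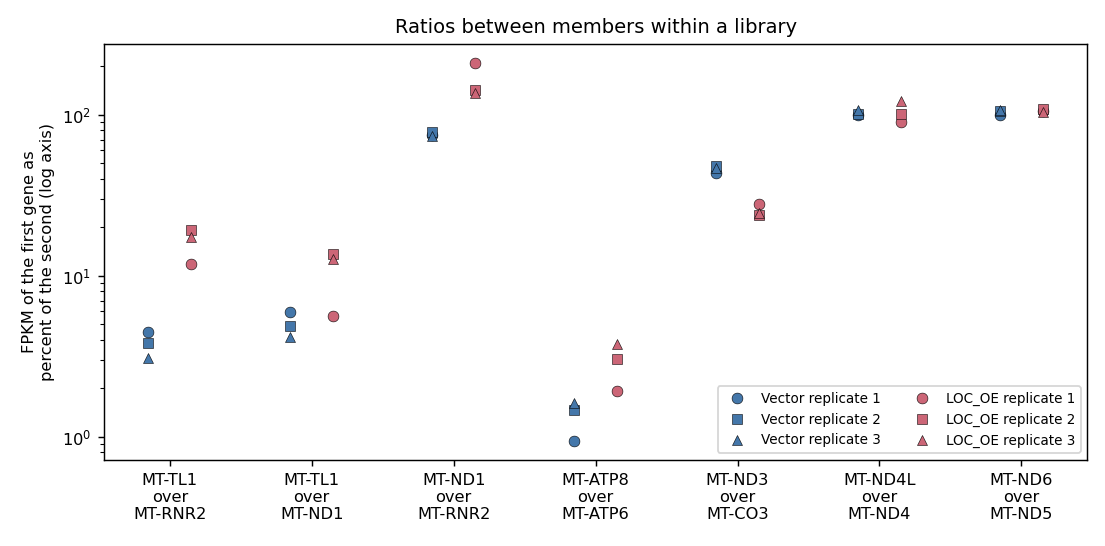
FPKM of one gene as a percentage of another within each library, on a log axis (y axis), for 7 pairs of mitochondrial genes (x axis), with 1 symbol per library. MT-TL1 over MT-RNR2 separates the groups, with Vector at 3.09 to 4.45% and LOC_OE at 11.8 to 19.3%, whereas MT-ND4L over MT-ND4 does not.

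The other called tRNA genes were supported by few reads. MT-TR, between MT-ND3 and MT-ND4L, had 26, 18 and 20 reads across the Vector libraries and 55, 40 and 60 across LOC_OE, with a log2 fold change of 1.48 (SE 0.21, limma adjusted p = 0.00893). Its flanking genes MT-ND3 and MT-ND4L had log2 fold changes of only −0.07 and 0.20. MT-TE, next to MT-ND6 on the light strand, had 11, 15 and 11 reads across the Vector libraries and 36, 24 and 31 across LOC_OE, with a log2 fold change of 1.46 (SE 0.19, limma adjusted p = 0.00768). In both tRNA genes every LOC_OE library was above every Vector library. The log2 fold change was above those of the flanking mRNA genes in value, a difference that was not tested. With 1 library omitted, MT-TR kept its call in 4 of 6 fits and MT-TE in all 6.

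MT-TV lies between the rRNA genes and had 3.86, 1.56 and 0.779 FPKM in Vector and 17.2, 14.5 and 7.89 in LOC_OE. The groups did not overlap, and its log2 fold change was 2.27 (SE 0.42, limma adjusted p = 0.0167), beyond the 0.73 and 0.53 of MT-RNR1 and MT-RNR2. Its call was lost in 3 of the 6 fits with 1 library omitted, with adjusted p-values up to 0.0783 from limma. MT-TS2, for serine, had 3, 2 and 6 reads across the Vector libraries and 18, 6 and 13 across LOC_OE, with 6 reads as the highest Vector and the lowest LOC_OE value, which stood at 5.47 and 6.34 FPKM. MT-TS2 had a log2 fold change of 1.71 (SE 0.45, limma adjusted p = 0.0417) and kept its call in only 1 of those 6 fits. Its neighbours MT-TH for histidine and MT-TL2 for a second leucine tRNA were not called, with log2 fold changes of 0.78 and 0.57.

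For MT-TQ, MT-TK and MT-TF every Vector library had at most 2 reads. MT-TQ had 2, 1 and 1 reads across the Vector libraries and 12, 10 and 7 across LOC_OE, a ratio of 8.68 between the summed reads per library size, with an exact 95% counting interval of 3.05 to 34.0. MT-TK, the lysine tRNA before MT-ATP8, had 1, 2 and 0 reads across the Vector libraries and 5, 6 and 8 across LOC_OE, a ratio of 7.58 with a counting interval of 2.23 to 40.0. MT-TF, the phenylalanine tRNA at the start of the heavy-strand precursor, had 1, 0 and 1 reads across the Vector libraries and 4, 3 and 4 across LOC_OE, a ratio of 6.58 with a counting interval of 1.44 to 61.1. These intervals cover counting error only. All 3 genes met the thresholds of a call, with adjusted p-values of 0.00374, 0.0147 and 0.0117 from limma, and the groups did not overlap. For MT-TK and MT-TF the Vector libraries alone did not reach the filter, so their calls and separation are not read as support. MT-TS1, for serine, also met the thresholds of a call, but it passed the filter through the LOC_OE libraries alone and had 0 reads in every Vector library and 1 read in each LOC_OE library, so no fold is given and no difference is read from it. MT-TD, for aspartate, had at most 1 read in any library, and these 2 genes did not exceed 3 reads in any library.

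The most abundant tRNA genes, unlike MT-TL1, were not called. MT-TN had 2243, 1609.7 and 1641 FPKM in Vector and 1215, 2206 and 2409 in LOC_OE. LOC_OE replicate 1 was the lowest of all 6 libraries and replicate 3 the highest, and the log2 fold change was 0.04 (SE 0.29, limma adjusted p = 0.932). MT-TC, separated from MT-TN by the 31 bases that hold the origin of light-strand replication, had 1131, 1224 and 1188 FPKM in Vector and 798, 1605 and 1539.6 in LOC_OE. LOC_OE replicate 1 was again the lowest of all 6 libraries, here with replicate 2 the highest, and MT-TC had a log2 fold change of 0.09 (SE 0.27, limma adjusted p = 0.846). MT-TP, next to the control region, had 340.2, 326 and 308 FPKM in Vector and 258, 298 and 333 in LOC_OE, with a log2 fold change of −0.14 (limma adjusted p = 0.451). MT-TY, for tyrosine, had 102, 97.9 and 90.4 FPKM in Vector and 109, 156 and 145 in LOC_OE. Its groups did not overlap, and its log2 fold change of 0.48 had an adjusted p of 0.066 from limma. Without LOC_OE replicate 1, MT-TN stood at 0.35 (limma adjusted p = 0.166) and MT-TC at 0.41 (limma adjusted p = 0.0131), both below the fold threshold. In that fit MT-TY was called, at 0.64 (limma adjusted p = 0.00219). MT-TP lay between −0.23 and −0.04 with any 1 library left out.

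These 4 light-strand genes held most of the tRNA reads. MT-TN took 52.8% of all tRNA reads in Vector and 47.7% in LOC_OE, MT-TC took 30.8 and 29.2%, and MT-TP took 8.73 and 6.80%. MT-TL1 went from 1.12 to 6.0% of them. The remaining light-strand tRNA gene among those not called, MT-TA for alanine, had 3, 0 and 1 reads across the Vector libraries and 3, 4 and 1 across LOC_OE. Among the heavy-strand tRNA genes that were not called, MT-TG, for glycine, was the most abundant in Vector at 41.8 ± 4.31 FPKM (SD, n = 3 libraries), with 60.1 ± 18.4 in LOC_OE and overlapping groups. MT-TI, for isoleucine, had 17, 9 and 22 reads across the Vector libraries and the same 17, 9 and 22 across LOC_OE, and at log2 fold changes of 1.61 and 0.99, MT-TW for tryptophan and MT-TT for threonine missed the threshold with adjusted p-values of 0.0831 and 0.0978 from limma. MT-TM, for methionine, varied widely within a group, with 16, 4 and 0 reads in LOC_OE and 4, 4 and 2 in Vector.

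**Figure D4:**
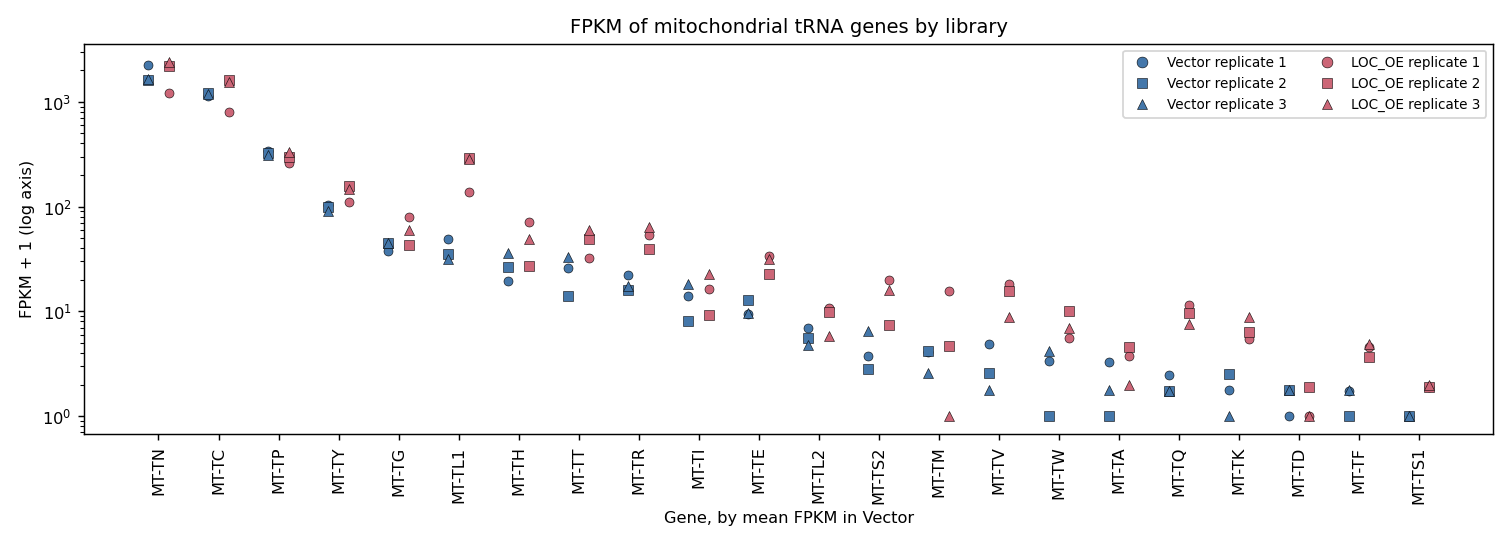
FPKM + 1 on a log axis (y axis) of the 22 tRNA genes in each of the 6 libraries, ordered by the Vector mean (x axis), with 1 symbol per library. MT-TN and MT-TC at the left have overlapping groups at or above 798 FPKM, MT-TL1 at 137 to 292 FPKM in LOC_OE lies above its Vector range of 30.8 to 47.6, and several genes at the right lie near 1 read per library.

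The libraries differed in the size of the tRNA and mRNA differences. Against the Vector mean, the median log2 difference of the 13 mRNA genes was 0.53, 0.36 and 0.45 in LOC_OE replicates 1, 2 and 3, and that of the 22 tRNA genes was 1.13, 0.89 and 0.94. LOC_OE replicate 1 was highest in both medians, yet lowest of the LOC_OE libraries for MT-TL1, MT-TN, MT-TC and MT-RNR2. Nuclear genes of at most 100 bases had a median log2 fold change of −0.10 over 366 tested, with 11 called higher and 19 lower. Nuclear snoRNA genes had a median of 0.10 over 145 tested, with 10 called higher and 5 lower. For snRNA genes the median was −0.07 over 248, with 8 higher and 13 lower, and for miRNA genes −0.09 over 218, with 6 and 12. Among all genes tested, 4.63% were called higher and 5.58% lower, and these groups were not tested against that share.

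**Figure D5:**
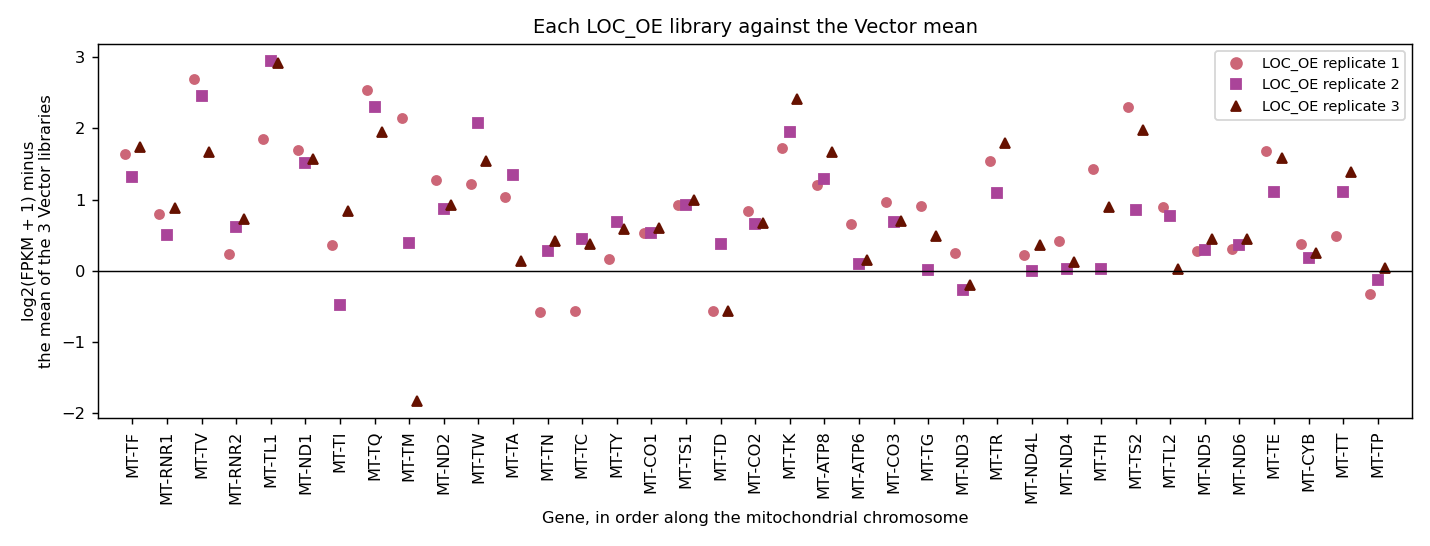
Difference of each LOC_OE library from the mean of the 3 Vector libraries in log2(FPKM + 1) (y axis), for the 37 genes in chromosome order (x axis), with 1 symbol per LOC_OE library. The symbols of MT-ND1 lie close together, while LOC_OE replicate 1 lies below the others for MT-TL1, MT-TN and MT-TC.

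As a share of all reads on genes, the mitochondrial mRNA genes took 4.63, 4.18 and 4.36% in Vector and 5.48, 5.31 and 5.69% in LOC_OE, with no overlap and a ratio of means of 1.25. The ratio of their summed FPKM was 1.43, where LOC_OE reads were divided by library sizes that were smaller relative to the reads, and the ratio of their shares of all FPKM was 1.19. The rRNA genes took 0.230, 0.194 and 0.220% of reads in Vector and 0.225, 0.288 and 0.332% in LOC_OE, which overlapped through LOC_OE replicate 1. For the tRNA genes the shares were 0.0296, 0.0260 and 0.0261% in Vector and 0.0175, 0.0324 and 0.0346% in LOC_OE, and the ratio of means was 1.03 with LOC_OE replicate 1 and 1.23 without it. The mRNA ratio was 1.25 with and without that library.

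Nuclear copies of mitochondrial DNA can share reads with these genes. The table lists 407 such copies, of which 309 were at 0 in every library and 5 had more than 100 reads in all, which were chosen after their values were seen. Reads on copies amounted to 1.19 to 1.37% of the reads on the mitochondrial genes in Vector and 1.42 to 1.71% in LOC_OE. MTND1P23 at chr1:629062-629433 on GRCh38 is identical to MT-ND1 in 349 of 352 aligned bases, and a window of 90 bases, from 709 to 798 of MT-ND1 and from 124 to 213 of MTND1P23, is shown with the differing bases in capitals because only reads over such bases separate the 2 genes.
MT-ND1: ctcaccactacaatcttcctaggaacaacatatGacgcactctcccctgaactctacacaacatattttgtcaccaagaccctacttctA
MTND1P23: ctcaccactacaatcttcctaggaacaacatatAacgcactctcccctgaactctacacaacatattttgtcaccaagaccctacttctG

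MTND1P23 had 1706, 1318 and 1234 reads across the Vector libraries and 4775, 3459 and 3442 across LOC_OE, with a log2 fold change of 1.71 (limma adjusted p = 0.00506), beside 1.60 for MT-ND1. MTND2P28, 98.4% identical to MT-ND2, had a log2 fold change of 0.79 (limma adjusted p = 0.0128), beside 1.02 for MT-ND2. The copies MTATP6P1, MTCO1P12 and MTND5P11 had log2 fold changes of 0.53, 0.22 and −0.04 and were not called. How reads that fit both a copy and a member were counted was not tested.

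The nuclear genes of mitochondrial gene expression were read from lists of 82 genes, of which 80 passed the filter, 9 were called higher, 1 lower and 70 not, beside 4.63% called higher and 10.2% called in either direction among all genes. Their median log2 fold change was 0.17, beside 0.02 for all genes tested, and 23 had an adjusted p-value below 0.05 at any fold change, beside 20.4% of all genes. In the transcription list 2 of 9 tested genes were called higher. TFAM, which packages mitochondrial DNA and opens its promoters, went from 10.5, 10.9 and 11.6 FPKM in Vector to 21.8, 18.3 and 16.6 in LOC_OE (log2 fold change 0.72, limma adjusted p = 0.0117). MTERF3, a negative regulator of mitochondrial transcription, had a log2 fold change of 0.65 (limma adjusted p = 0.0127), and both genes were higher in every LOC_OE library. POLRMT, the polymerase, was not called, at −0.33 (limma adjusted p = 0.197), and MTERF1 was listed at 0 in every library.

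Of 12 genes of mitochondrial RNA stability and decay, 4 were called higher and 0 lower, beside 4.63% and 5.58% of all genes, with a list median of 0.43. LRPPRC, which stabilises mitochondrial mRNAs together with SLIRP, had a log2 fold change of 0.67 (limma adjusted p = 0.0131). PNPT1, the polynucleotide phosphorylase of the mitochondrial degradosome, had 0.75, GRSF1, an RNA granule protein, had 0.70, and LACTB2, a mitochondrial endoribonuclease, had 0.97, with adjusted p-values of 0.0298, 0.0146 and 0.00459 from limma. All 3 LOC_OE libraries were above all Vector libraries for these 4 genes, whose list holds factors that protect and factors that degrade RNA. SLIRP itself was not called, at 0.41 (limma adjusted p = 0.258).

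None of the 10 genes that cut and finish mitochondrial precursors was called by limma (0 called), beside 10.2% of all genes called in either direction. In this list 2 had an unadjusted p below 0.05 with limma at any fold change, and 0 were called with limma voom. The counts of this list and of those below stand beside that share of all genes and were not tested against it. TRMT10C, a subunit of the mitochondrial RNase P that cuts tRNA 5′ ends, had a log2 fold change of 0.53 (limma adjusted p = 0.0547), and ELAC2, which cuts tRNA 3′ ends, had 0.38 (limma adjusted p = 0.259). Of 24 genes of tRNA and rRNA modification, 1 was called, NSUN2, an RNA cytosine methyltransferase, at 0.68 (limma adjusted p = 0.0297). Among 16 replication and maintenance genes, SSBP1, the mitochondrial single-stranded DNA-binding protein, was higher by 0.72 and RRM2B, a p53-responsive ribonucleotide reductase subunit, was lower at −0.77 (limma adjusted p = 0.0229 and 0.0144). Of 9 tested regulators of nuclear mitochondrial genes, GABPB1, a subunit of the activator GABP, was called higher at 0.63 (limma adjusted p = 0.00851). The 10 calls of the lists became 2, 1 and 2 when Vector replicates 1, 2 and 3 were left out in turn, 6 with LOC_OE replicate 1 left out, and 4 with the libraries rescaled to the same sum of FPKM.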

How the data were processed

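Gene-level FPKM of 6 RKO libraries were deposited by the authors, who prepared NEBNext Ultra libraries for paired reads on an Illumina NovaSeq. The submitters' processing notes name HISAT2 2.0.4, StringTie 1.3.0 and hg38. The counter, annotation, strand setting and RNA selection are not given in the sources used here. All 58735 identifiers were found in GENCODE v29. FPKM multiplied by merged exon length gave whole reads for 100% of values (tolerance 0.05), with 15008842 to 18410231 reads per library. Intervals on reads cover counting error only.

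LOC_OE and Vector were compared with limma 3.58.1 in R 4.3.3, with a variance trend, on log2(FPKM + 1), where a fold change understates low genes, over the 16061 genes with 0.5 FPKM or more in 3 or more libraries. Calls needed a Benjamini-Hochberg adjusted p below 0.05 and a fold change of at least 1.5. Ratios of members were compared by exact permutation tests. Same-numbered libraries were not treated as pairs (correlations of deviations 0.111, −0.034 and 0.117). The procedure was tested on simulated data. Alternatives were another pseudocount, other filters, 3 scalings, no trend, array weights, a replicate block, voom, other thresholds, and leaving out each library. Leaving out libraries for the MT-TL1 ratios was chosen after seeing the data. The members and gene lists were chosen with earlier results of these data known.

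Named are all called members, the extremes of level in each class, overlapping pairs, the flanks of called tRNA genes, MT-ND6 and, in each nuclear list, the called genes, with up to 3 in each direction. LRPPRC, POLRMT, MTERF1, SLIRP, TRMT10C and ELAC2 were added to these for their roles after their values were seen.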

Additional observations from a re-analysis of the deposited data

How the results depend on the processing

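Reads limit the tRNA genes most, since 17 of the 22 had fewer than 100 reads in every library. No member was called lower under any alternative run. With each library left out in turn, 7 to 17 members were called higher, with 7 without Vector replicate 2 and 17 without LOC_OE replicate 1. Called genes ranged from 1 to 5 for mRNA, 0 to 2 for rRNA and 1 to 11 for the nuclear list. The tRNA median ranged from 0.71 to 1.06, the tRNA minus mRNA difference of medians from 0.36 to 0.68, and the tRNA share ratio from 0.916 to 1.23. The lowest of each was without Vector replicate 2, except 0 rRNA genes, also reached without Vector replicate 1, Vector replicate 3 or LOC_OE replicate 3, and the share ratio, lowest without LOC_OE replicate 3. MT-TI ranged from −0.091 to 0.60, MT-TM from −0.71 to 1.27, MT-TN from −0.14 to 0.35, MT-TC from −0.091 to 0.41 and MT-ND3 from −0.24 to 0.025.

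Rescaling to the same sum of FPKM shifted the all-gene median to −0.18 (same nuclear sum −0.14) and the calls from 743 higher and 896 lower to 261 and 1787. The mRNA median minus the all-gene median was 0.36 as deposited and 0.29 and 0.30 on these scales, and the tRNA median minus it 0.88, 0.90 and 0.90. On that scale and on the nuclear one, 3 mRNA and 0 rRNA genes were called, the list had 4 and 3 calls, the mRNA median was 0.11 and 0.17, the tRNA median 0.73 and 0.77, and their difference 0.61 and 0.60. MT-TN became −0.22 and −0.16, MT-TC −0.17 and −0.12, MT-ND4L −0.066 and −0.010, MT-ND4 −0.071 and −0.015, and MT-TI −0.00054 on the first. Quantile normalization, which ties the top ranks of all libraries, gave 3 mRNA, 0 rRNA and 5 list calls, an mRNA median of 0, a difference of 0.86, and −0.31 for MT-TN, −0.28 for MT-TC, −0.17 for MT-ATP6, −0.077 for MT-ND4L, −0.093 for MT-ND5 and −0.037 for MT-ND6.

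Without the filter, 2 mRNA and 0 rRNA genes were called. At a fold change of at least 2, 3 mRNA, 0 rRNA and 0 list genes were called, and with no fold threshold 23 list genes. Array weights called 14 tRNA and 2 rRNA genes, with a difference of 0.63, −0.20 for MT-TI and 0.17 for MT-TD. A pseudocount of 0.1 gave a tRNA median of 1.28, a difference of 0.90 and −0.56 for MT-TM, and voom a tRNA median of 1.17 and a difference of 0.79. By summed FPKM the share ratio was 1.19 for mRNA and 0.998 for tRNA. Except for the changes of scale and filter, the cause was not tested. With the replicate number as a replicate block, 15 members and 10 list genes were called, the counts without it, and 696 and 739 of all genes were called higher and lower.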
